A study of Mus musculus with 11 samples.

Results

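The transcripts of 10 circadian clock genes, Arntl, Clock, Npas2, Per1, Per2, Per3, Cry1, Nr1d1, Nr1d2 and Dbp, were followed in mouse hepatocytes, library by library. They were chosen by name from 54232 Ensembl genes counted in 11 RNA-Seq libraries, and each was found by its symbol in GENCODE M21. Adult male C57BL/6 mice carried floxed Xbp1, which encodes X-box binding protein 1, a transcription factor of the unfolded protein response. In Xbp1 LKO mice the floxed gene was deleted by Cre driven by the albumin promoter, so other liver cells keep it, and Xbp1 fl/fl mice served as controls. Mice ate either chow or HFS, a high fat sugar diet made of Western diet with fructose and glucose in the drinking water, for up to 6 weeks. On chow there were 3 Xbp1 fl/fl and 2 Xbp1 LKO libraries, and on the HFS diet 3 of each genotype. A chow library held the hepatocytes of a single mouse, whereas the HFS libraries were made from pooled mice and so average over animals. The time of day at which hepatocytes were isolated is not given in the sources used here. The methods state a light phase longer than the dark phase and a fast of some hours before euthanasia.

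The clock of a cell is a feedback loop of transcription. CLOCK, or its paralog NPAS2, pairs with BMAL1, the product of Arntl, and the pair activates genes through E-box motifs. Among its targets are the Per and Cry genes, whose proteins inhibit the pair, and Nr1d1 and Nr1d2, which encode REV-ERB alpha and beta, repressors of Arntl that bind RORE motifs. A further target is Dbp, an activator that binds D-box motifs together with TEF and HLF and against the repressor NFIL3. In mouse liver the Arntl, Clock and Npas2 transcripts peak at about the opposite time of day to Nr1d1, Dbp and Per transcripts.

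The 250 bases before the annotated start are shown for the members in which these windows hold a motif named above. Promoters were taken from RefSeq on GRCm38.p6, which matched 9 of the 10 members by symbol, and are written 5′ to 3′ on the gene's strand with the motifs in capitals. The motifs searched, on both strands, were the E-box (CACGTG), the D-box (TTATGTAA or TTACGTAA) and the RORE, and none overlapped another. Per1 (chr11:69098699-69098948, plus strand) held 1 E-box that began 166 bases before the start, Cry1 (chr10:85185055-85185304, minus strand) held 1 that began 60 bases before it, and Per3 (chr4:151044666-151044915, minus strand) held 2 D-boxes, at 205 and 158 bases.
Per1: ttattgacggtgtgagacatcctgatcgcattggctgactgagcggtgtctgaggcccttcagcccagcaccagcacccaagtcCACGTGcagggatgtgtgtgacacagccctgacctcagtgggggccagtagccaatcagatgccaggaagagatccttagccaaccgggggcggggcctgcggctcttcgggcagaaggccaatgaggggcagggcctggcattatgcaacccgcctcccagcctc
Cry1: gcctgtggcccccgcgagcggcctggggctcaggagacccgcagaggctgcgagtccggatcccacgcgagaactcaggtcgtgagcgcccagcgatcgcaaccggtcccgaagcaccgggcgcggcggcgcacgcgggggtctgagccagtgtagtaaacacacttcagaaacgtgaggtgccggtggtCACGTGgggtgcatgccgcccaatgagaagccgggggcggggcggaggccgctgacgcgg
Per3: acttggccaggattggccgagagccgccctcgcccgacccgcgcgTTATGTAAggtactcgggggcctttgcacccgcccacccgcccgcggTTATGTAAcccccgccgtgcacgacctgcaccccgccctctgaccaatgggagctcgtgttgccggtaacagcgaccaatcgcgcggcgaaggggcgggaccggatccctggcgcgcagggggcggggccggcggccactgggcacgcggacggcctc
The 9 members had 13 such windows, since some genes have more than 1 annotated start, and 2 windows held an E-box, 1 a D-box and none a RORE, against 6.02%, 0.931% and 0.332% of all 32851 promoters. A match is a description of letters, and its absence says only that these letters are not in this window.

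Total counts ran from 19191032 to 23888401 per library. Levels are given as CPM, counts relative to the total of the library after scaling by edgeR's TMM factors. Xbp1 itself was at 194 to 221 CPM in the controls on chow, against 95.7 and 128 CPM in the knockouts, and at 242 to 301 CPM in the controls on the HFS diet, against 97.3 to 135 CPM in the knockouts. These Xbp1 counts are of the whole gene and do not measure the loss of the single exon followed by qPCR. All 10 hepatocyte markers passed the filter on low counts, and 4 of the 6 cholangiocyte markers, Krt7, Krt19, Epcam and Cftr, stayed under 0.5 CPM in every library.

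The most abundant clock transcript per length of exon was Nr1d1, with a median over the 11 libraries of 36.4 CPM per kilobase. It was followed by Dbp with 32.1 and Nr1d2 with 21.8 CPM per kilobase. Nr1d1 exceeded Dbp in 9 of 11 libraries and Dbp exceeded Nr1d2 in 10, so the order of these genes was not the same in every library. Per1 had 9.64, Per2 6.64, Per3 5.12, Clock 2.77 and Cry1 2.36 CPM per kilobase as medians, and each stood above the next in 10 or 11 of the libraries. Arntl had 0.352 and Npas2 0.0362 CPM per kilobase. Arntl and Npas2, which encode activators of the loop, were thus the least abundant of the 10, and 3 of its targets the most abundant.

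None of the 9 clock genes tested passed in any of the 5 comparisons (genotype on either diet, diet in either genotype, and their interaction), by edgeR or by DESeq2. Over all genes DESeq2 passed 8.32% and 6.81% in the genotype comparisons on chow and on the HFS diet, 1.17% and 1.5% in the diet comparisons in Xbp1 fl/fl and in Xbp1 LKO mice, and 0.223% for the interaction. At an unadjusted p under 0.05 edgeR had 19.3%, 17.5%, 8.95%, 12.7% and 6.13% of all genes in the same order, and of the members Arntl alone, in the diet comparison in Xbp1 LKO mice. Member levels differed most in a single chow-fed Xbp1 LKO mouse, library 2 of that group, in which Arntl was several times higher and Per2, Per3 and Dbp were lower than in every other library. Nr1d1 and Nr1d2 lay within the range of the others there. This library was singled out after its values were seen, so what follows about it is a description, and the clock gene comparisons that turn on it are given with and without it. Replicates were not stated to share anything but group, so p-values measure the spread between these libraries.

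**Figure D1:**
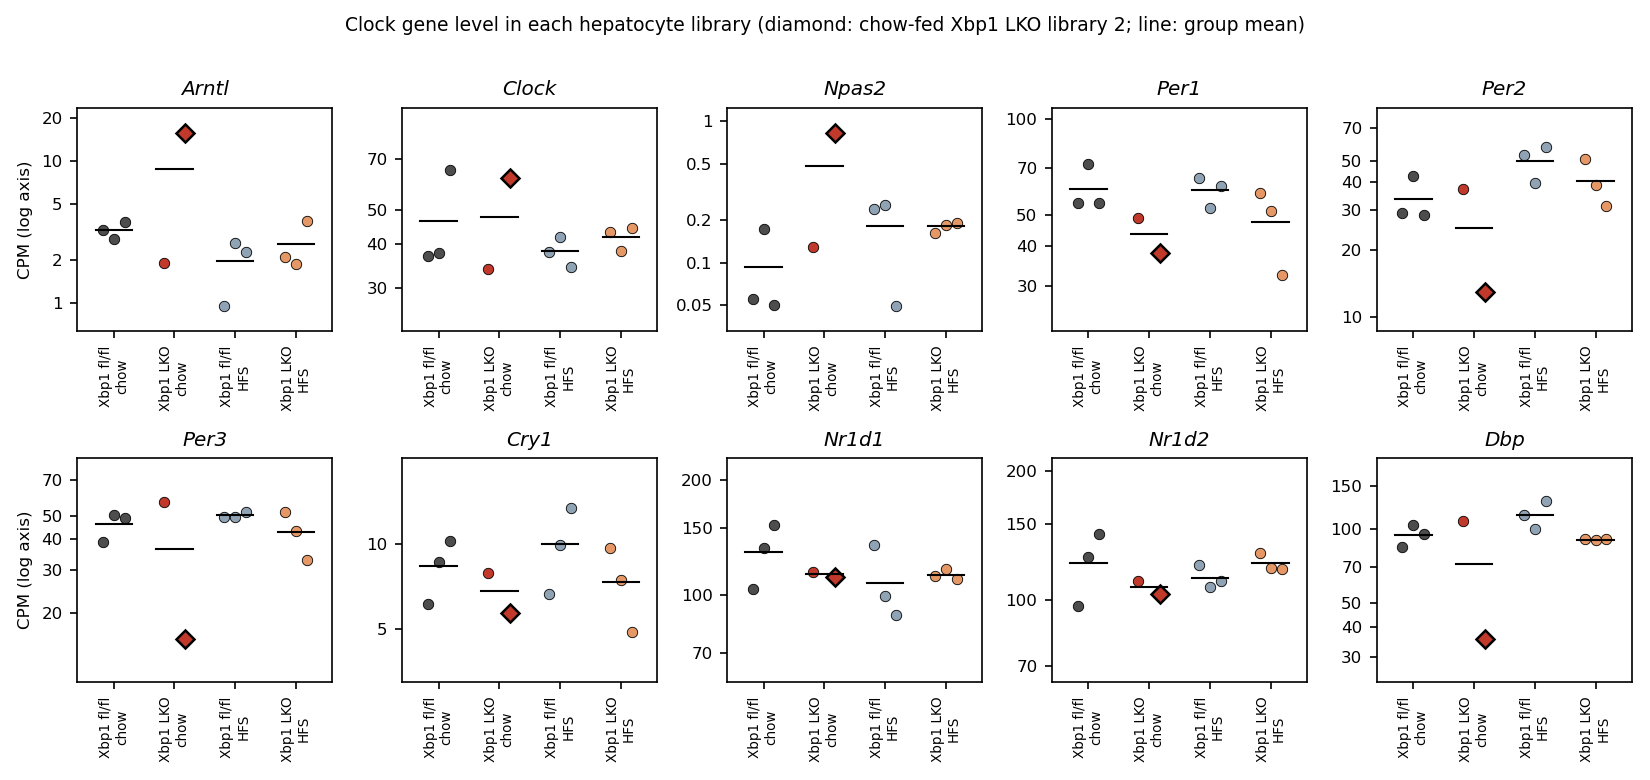
Level of each of the 10 clock genes in CPM on a log axis, 1 point a library in the 4 genotype and diet groups, with a line at the group mean. The diamond, chow-fed Xbp1 LKO library 2, sits at 15.7 CPM for Arntl against 0.953 to 3.76 elsewhere, and below all other points for Per2, Per3 and Dbp.

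Arntl (ENSMUSG00000055116, chromosome 7, 113207465 to 113314126 on the plus strand of GRCm38) encodes the shared subunit of the activator. On chow, Xbp1 fl/fl libraries 1 to 3 had 3.25, 2.83 and 3.73 CPM, and Xbp1 LKO libraries 1 and 2 had 1.92 and 15.7 CPM. On the HFS diet it had 0.953, 2.65 and 2.30 CPM in Xbp1 fl/fl libraries and 2.12, 1.90 and 3.76 CPM in Xbp1 LKO libraries. The 15.7 CPM of library 2 was 4.17 times the next highest library and 6.34 times the median of the other 10, whereas library 1 of the same group was among the lowest. These values rest on 20 counts in the lowest library and 359 in the highest. Without library 2, Arntl still spanned a 3.94-fold range, from HFS-fed Xbp1 fl/fl library 1 to HFS-fed Xbp1 LKO library 3.

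Clock (ENSMUSG00000029238, chromosome 5, 76209868 to 76304792, minus strand), the partner of BMAL1, varied far less. On chow it had 36.9, 37.8 and 65.0 CPM in the controls, and 33.9 and 61.5 CPM in the knockouts. In HFS-fed mice it had 37.9, 41.9 and 34.5 CPM in Xbp1 fl/fl and 43.2, 38.1 and 44.3 CPM in Xbp1 LKO libraries. The high values were thus chow-fed Xbp1 fl/fl library 3 and chow-fed Xbp1 LKO library 2, and the other 9 libraries lay between 33.9 and 44.3 CPM. Npas2 (ENSMUSG00000026077, chromosome 1, 39193731 to 39363236, plus strand) was barely detected and did not pass the filter on low counts. It had 1 to 5 counts in 10 libraries and 19 counts, or 0.830 CPM, in chow-fed Xbp1 LKO library 2, where the others had 0.0490 to 0.255 CPM.

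Among the repressors of the pair, Per1 (ENSMUSG00000020893, chromosome 11, 69095217 to 69109960, plus strand) is, like Cry1, a gene with an E-box shown above. On chow its levels were 54.3, 72.0 and 54.3 CPM in Xbp1 fl/fl, and 49.0 and 37.9 CPM in Xbp1 LKO mice. HFS-fed libraries had 65.0, 52.3 and 61.7 CPM in Xbp1 fl/fl and 58.6, 51.3 and 32.4 CPM in Xbp1 LKO mice. The chow-fed genotypes did not overlap for Per1, as in 31.3% of all genes, and the HFS-fed genotypes did. The lowest library of all was HFS-fed Xbp1 LKO library 3.

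Per2 (ENSMUSG00000055866, chromosome 1, 91415982 to 91459324, minus strand) was at 29.3, 42.9 and 28.7 CPM in the controls on chow, against 37.3 and 13.0 CPM in the knockouts. It had 52.9, 39.7 and 57.2 CPM in HFS-fed Xbp1 fl/fl libraries and 50.6, 38.9 and 31.5 CPM in HFS-fed Xbp1 LKO libraries. The 13.0 CPM of chow-fed Xbp1 LKO library 2 was 0.331 times the median of the other 10 libraries, and the lowest of those was 2.21 times as high. Per3 (ENSMUSG00000028957, chromosome 4, 151003652 to 151044665, minus strand), whose window holds the D-boxes, showed the same exception and was otherwise steadier. It had 39.1, 50.5 and 48.8 CPM in chow-fed Xbp1 fl/fl, 57.1 and 15.7 CPM in chow-fed Xbp1 LKO, 49.6, 49.2 and 51.9 CPM in HFS-fed Xbp1 fl/fl and 52.0, 43.3 and 32.9 CPM in HFS-fed Xbp1 LKO libraries. The 2 chow-fed Xbp1 LKO libraries therefore held the highest and the lowest Per3 value of all 11.

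Cry1 (ENSMUSG00000020038, chromosome 10, 85131700 to 85185064, minus strand), which encodes a repressor that works with the PER proteins, did not set library 2 apart. It had 6.12, 8.67 and 10.3 CPM in chow-fed Xbp1 fl/fl, 7.89 and 5.72 CPM in chow-fed Xbp1 LKO, 6.67, 9.88 and 13.3 CPM in HFS-fed Xbp1 fl/fl, and 9.69, 7.47 and 4.91 CPM in HFS-fed Xbp1 LKO libraries. Every group overlapped every other, and the lowest value belonged to HFS-fed Xbp1 LKO library 3.

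The REV-ERB genes were the steadiest over all 11 libraries. Without chow-fed Xbp1 LKO library 2, Dbp spanned a 1.53-fold range, less than the 1.72-fold range of Nr1d1. Nr1d1 (ENSMUSG00000020889, chromosome 11, 98767932 to 98775333, minus strand) had 103, 133 and 152 CPM in chow-fed Xbp1 fl/fl, 115 and 111 CPM in chow-fed Xbp1 LKO, 135, 99.3 and 88.4 CPM in HFS-fed Xbp1 fl/fl and 112, 117 and 109.9 CPM in HFS-fed Xbp1 LKO libraries. The Xbp1 LKO libraries of both diets lay between 109.9 and 117 CPM, chow-fed library 2 included, and the Xbp1 fl/fl libraries between 88.4 and 152 CPM. Nr1d2 (ENSMUSG00000021775, chromosome 14, 18204054 to 18239127, minus strand) had 96.4, 126 and 142 CPM in chow-fed Xbp1 fl/fl, 111 and 103 CPM in chow-fed Xbp1 LKO, 120.2, 107 and 111 CPM in HFS-fed Xbp1 fl/fl and 128, 118 and 118 CPM in HFS-fed Xbp1 LKO libraries. The highest library was 1.48 times the lowest, the smallest range of the 10 members.

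Dbp (ENSMUSG00000059824, chromosome 7, 45705088 to 45710203, plus strand), an output of the loop, was at 85.1, 103.9 and 96.0 CPM in the controls on chow, against 108 and 35.7 CPM in the knockouts. On the HFS diet it had 114, 100.4 and 130.1 CPM in Xbp1 fl/fl libraries and 91.1, 90.3 and 91.3 CPM in Xbp1 LKO libraries. The HFS-fed genotypes did not overlap for Dbp, as in 26.1% of all genes. In chow-fed Xbp1 LKO library 2 Dbp was 0.363 times the median of the other 10, and the lowest of those was 2.38 times as high. Dbp overlaps Sphk2, a sphingosine kinase gene on the opposite strand, and the strand setting of the counting is not given in the sources used here. Sphk2 had 107 CPM in library 2 and 41.3 to 76.0 CPM elsewhere, so the neighbours went opposite ways there. Nr1d1 overlaps Thra on the opposite strand, which had 10.04 to 14.2 CPM, and Per3 overlaps Camta1 on the same strand, which had 1.56 to 3.41 CPM.

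Chow-fed Xbp1 LKO library 2 lay outside the range of the other 10 libraries by at least 1 on the log2 scale for 4 of the 9 members tested: above it for Arntl, below it for Per2, Per3 and Dbp. Of all 13303 genes tested, 1.04% did so. At any distance it was outside the range for those 4 members and for 31.2% of all genes, so the members stood out by distance more than by number. No other library was outside the range by that distance for any member, the nearest being HFS-fed Xbp1 fl/fl library 1, whose 0.953 CPM of Arntl lay below the 1.90 CPM of the next library. Over the members, library 2 deviated from the median of all 11 libraries by 0.69 on the log2 scale as a median, against 0.064 to 0.38 in the others.

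**Figure D2:**
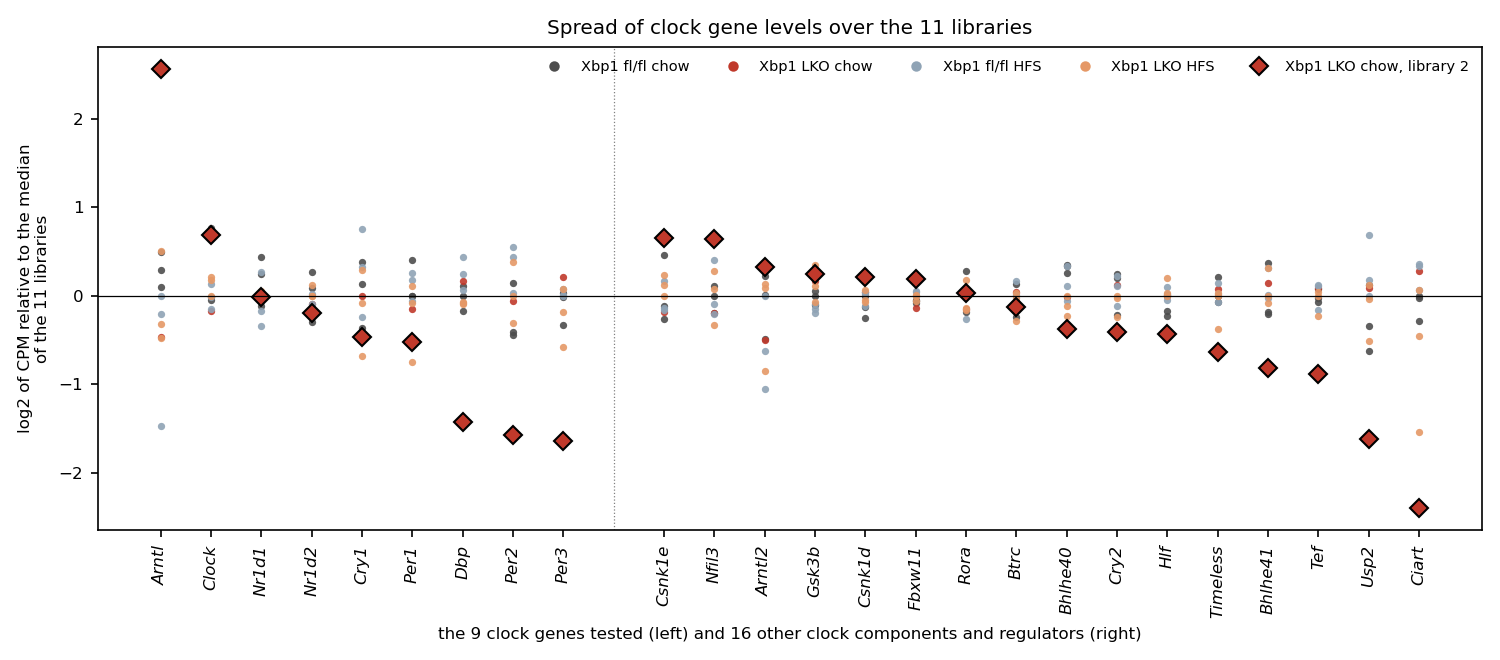
Level of each gene in each library as the log2 of its CPM over the median of the 11 libraries, for the 9 clock genes tested (left of the dotted line) and 16 other clock components and regulators (right), ordered by the value of chow-fed Xbp1 LKO library 2. The diamonds of that library lie at the edge of the points for most genes, up for Arntl and down for Per2, Per3, Dbp, Usp2 and Ciart, and among the other points for Nr1d1, Nr1d2 and Rora.

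Other clock components stood apart in that library too, but with a smaller log2 gap to the nearest other library than Arntl, Per2, Per3 and Dbp. Relative to the median of the other 10 libraries, Ciart was at 0.185 times and Usp2 at 0.316 times. Both were lower than Per3 at 0.318, Per2 at 0.331 and Dbp at 0.363 times. Of 16 other clock components and regulators, all of them tested, library 2 was the highest of the 11 for 5 and the lowest for 8. By at least 1 on the log2 scale, the distance used for the members, it was outside the range for 0 of the 16, against 1.04% of all genes. By at least 0.5 it was outside for 4, against 3.99% of all genes, and all 4 were low. Tef, the relative of Dbp, had 148 CPM there against 231 to 296 in the other libraries, and Ciart, a repressor of the BMAL1 pair, had 4.06 CPM against 7.40 to 27.7. Usp2, a deubiquitinase gene with a daily rhythm in liver, had 25.8 CPM against 51.3 to 128, and Bhlhe41, a repressor at E-boxes, had 3.71 CPM against 5.66 to 8.46. Nfil3, the repressor at D-boxes, was the highest of the 11 with 30.5 CPM against 15.5 to 25.7. Rora, Btrc and Gsk3b lay within the range.

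Of 15 liver genes under circadian control, library 2 was the highest for 1 and the lowest for 4, or 33.3%, close to the 31.2% of all genes, and for 2 of them it was outside by at least 1 on the log2 scale. These were Wee1, a kinase gene of the cell cycle, with 5.42 CPM against 11.1 to 29.6, and Gys2, the liver glycogen synthase, with 161 CPM against 336 to 641. Nampt, the enzyme that limits NAD synthesis, had 41.8 CPM against 49.0 to 87.7. The genes named here from library 2 were named after their values were seen.

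Library 2 also stood apart in other measures. Of 10 fasting and feeding response genes it was outside the range for 4, or 40%, against 31.2% of all genes. Pdk4, which limits glucose oxidation and rises on fasting, was at 34.6 CPM against 0.916 to 10.02. Srebf1, the driver of fat synthesis after feeding, was at 52.4 CPM against 147 to 905. Of 9 glucocorticoid-induced genes it was outside for 2, and of 14 immediate early genes tested for 3, which at 22.2% and 21.4% were below the 31.2% of all genes. The summed level of the 10 hepatocyte markers was 36900 CPM in library 2 and 55036 to 167398 CPM in the rest, and Alb took 1.67% of its counts against 3.33% to 10.9%. Alb alone made up 14021 CPM of the sum in library 2. Hepatocyte markers were at their lowest there for 4 of 10, or 40%, not far from the 31.2% of all genes outside the range, and the others lay within it. Sinusoidal endothelial markers were at their lowest for 7 of 8, or 87.5%, with a sum of 23.0 CPM against 29.6 to 124 CPM. The sum of Kupffer cell and macrophage markers was 26.9 CPM against 15.9 to 70.5, that of stellate cell markers 8.78 CPM against 8.66 to 58.4, and that of cholangiocyte markers 4.81 CPM against 3.38 to 16.3, all within the range of the other libraries. The part of feeding state, of cell makeup and of time of collection in the clock gene values was not tested.

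Arntl was set against each of the other 9 members over the 11 libraries, on log2 CPM. It ran opposite to Per2, with a Pearson r of -0.90 (permutation p = 0.00098, adjusted p = 0.0088 over 9 relations) and a Spearman rho of -0.70 (permutation p = 0.021, adjusted p = 0.16). It ran opposite to Per3 (r = -0.86, permutation p = 0.0056, adjusted p = 0.025; rho = -0.65, adjusted p = 0.16) and to Dbp (r = -0.87, permutation p = 0.0099, adjusted p = 0.030; rho = -0.48, adjusted p = 0.31). It ran with Clock (r = 0.70, permutation p = 0.018, adjusted p = 0.040; rho = 0.54, adjusted p = 0.28). These 4 of 9 relations passed the threshold by Pearson's r and none by Spearman's rho. Among 8879 genes with a mean of at least 5 CPM, ordered by r with Arntl, Per2 was 5th from the bottom. Dbp was 14th and Per3 15th from the bottom, whereas Clock was 286th from the top. The other 5 members had an r between -0.59 for Per1 and 0.51 for Npas2, and Nr1d1 and Nr1d2 were at -0.10 and -0.28.

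The relations rest on library 2. Without the libraries farthest from the median of Arntl, chow-fed Xbp1 LKO library 2 and HFS-fed Xbp1 fl/fl library 1, r was -0.65 with Per2, -0.60 with Per3, -0.31 with Dbp and 0.61 with Clock over 9 libraries. Without library 2 alone, r was -0.69 with Per2, -0.46 with Per3, -0.46 with Dbp and 0.48 with Clock, and none passed the threshold, the smallest adjusted p being 0.19. The directions held in these 10 libraries. As deviations from the 4 group means, r over all 11 was -0.85 with Per2, -0.86 with Per3, -0.83 with Dbp and 0.67 with Clock, values to which library 2 and the other library of its group of 2 contribute equal and opposite deviations.

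**Figure D3:**
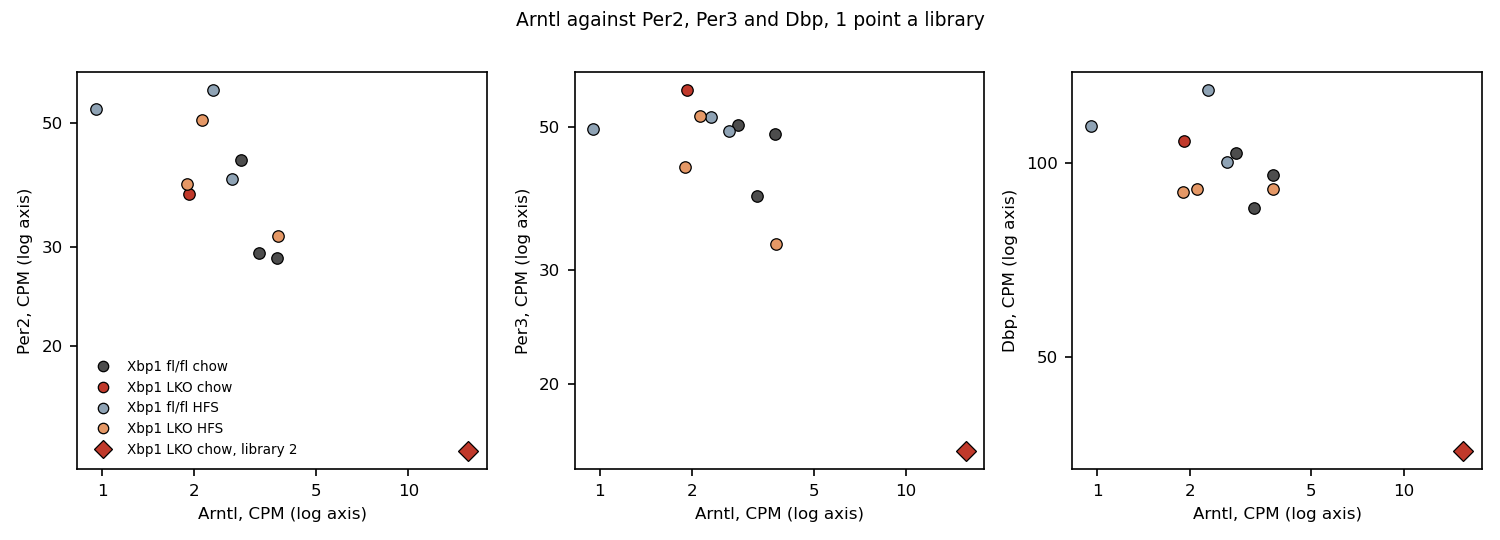
Arntl on the horizontal axis against Per2, Per3 and Dbp on the vertical axis, in CPM on log axes, 1 point a library and coloured by group. Chow-fed Xbp1 LKO library 2 lies alone at the lower right with 15.7 CPM of Arntl, and the other 10 libraries form a cloud at the upper left that slopes downward most for Per2.

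Over the same 11 libraries, the genes most like Dbp among 8878 with a mean of at least 5 CPM included Ngef (r = 0.95), Mtss1 (0.95), Tef (0.95) and Trmt2b (0.94), of which Tef is a clock component. Without library 2 these were 0.84, 0.89, 0.62 and 0.59. Per3 was 10th from the top of that order and Per2 21st. The genes that ran most against Dbp were Kdm4a, Sqstm1, Sf3b3, Tnfrsf12a and Nedd4l, with r from -0.95 to -0.93. Most like Arntl were Cdc34, Kdm4a, Ski, Sqstm1 and Nelfa, with r from 0.92 to 0.89, and among the most opposite were D5Ertd579e, Azin1, Slc2a2 and Tef, with r from -0.93 to -0.90. Kdm4a and Sqstm1 thus stood at the top for Arntl and at the bottom for Dbp, and Tef the other way round. These are descriptions over libraries that share the same exception.

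The first comparison asked what loss of Xbp1 does on chow. No clock gene passed edgeR's quasi-likelihood test at an adjusted p (Benjamini-Hochberg) under 0.05, whereas 632 of 13303 genes did (4.75%). None had an unadjusted p under 0.05 in edgeR, and Arntl and Npas2 had one in DESeq2. The median log2 fold change of the 9 members tested was -0.30, against 0.0024 over all genes. Arntl had the largest, 1.42 (standard error 0.65, 95% confidence interval -0.00059 to 2.85, adjusted p = 0.26), and Per1 the next, -0.47 (0.23, -0.98 to 0.036, adjusted p = 0.30). Without library 2 the log2 fold change of Arntl was -0.77 (standard error 0.55, adjusted p = 0.73), and Per2, Per3 and Dbp turned from -0.42, -0.34 and -0.40 to 0.15, 0.31 and 0.19. The lone Xbp1 LKO library is then assumed to vary like the other groups, and 69 genes passed (0.498%). With library 2 as the lone Xbp1 LKO library, Arntl was at 2.26, Per2 at -1.37, Per3 at -1.55 and Dbp at -1.41. These 4 tested members and Npas2 passed in that fit, as did 5.48% of all genes. Library 2 was singled out by its values of the same 4 members, so their calls are no test of genotype. Npas2, which the filter removed from the main fit, had 19 counts in library 2 and 1 to 5 in the other libraries. With no filter on low counts Arntl passed (adjusted p = 0.00016), as did 5.79% of genes. Scaling by library totals moved the median of all genes by 0.33 on chow and turned Cry1, Nr1d1 and Nr1d2 from -0.30, -0.20 and -0.18 to 0.025, 0.13 and 0.14. Per1 was the member whose groups did not overlap, as in 31.3% of all genes.

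The same question was asked on the HFS diet. No member passed, against 543 genes (4.08%), and their adjusted p-values were 0.46 to 0.89. The log2 fold changes ran from -0.44 for Cry1 (95% confidence interval -1.10 to 0.22) to 0.40 for Arntl (-0.98 to 1.78), with a median of -0.23 against 0.0083 over all genes. Nr1d1 at 0.069 (-0.30 to 0.44) and Nr1d2 at 0.11 (-0.18 to 0.40) had the narrowest intervals. Dbp was 90.9 ± 0.56 CPM (SD, n = 3) in Xbp1 LKO and 115 ± 14.9 CPM (SD, n = 3) in Xbp1 fl/fl libraries, that is a log2 difference of -0.34 (standard error 0.29, adjusted p = 0.63), and its groups did not overlap, as in 26.1% of all genes. Without chow-fed Xbp1 LKO library 2, which enters this fit only through the shared spread, the standard error of Dbp was 0.12 and its adjusted p 0.15, where 4.78% of all genes passed and no member did. Scaling by library totals moved the median of all genes by 0.26 and turned Per3 from -0.23 to 0.018.

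In Xbp1 fl/fl mice the HFS diet was compared with chow. No member passed, against 57 genes (0.428%), with adjusted p-values of 0.68 to 0.995. Per2 had 49.9 ± 9.11 CPM on the HFS diet and 33.6 ± 8.01 CPM on chow (SD, n = 3 each), a log2 fold change of 0.57 (95% confidence interval -0.14 to 1.28). Arntl had 1.97 ± 0.895 CPM and 3.27 ± 0.451 CPM (SD, n = 3 each), a log2 fold change of -0.74 (-2.13 to 0.65), and was the member whose groups did not overlap, as in 13.7% of all genes. With no filter on low counts Per2 passed (adjusted p = 0.012), as did 1.92% of genes. Without chow-fed Xbp1 LKO library 2, 0.404% of genes and no member passed. The median over the members, -0.012, was close to the -0.0056 over all genes.

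In Xbp1 LKO mice the same comparison passed 8 genes (0.0601%), and no member was among them. Arntl was the member with an unadjusted p under 0.05, as were 12.7% of all genes. Arntl had the largest log2 fold change, -1.76 (standard error 0.65, 95% confidence interval -3.18 to -0.34, unadjusted p = 0.019, adjusted p = 0.30), from 2.59 ± 1.02 CPM (SD, n = 3) on the HFS diet and 1.92 and 15.7 CPM on chow. Without library 2 it was 0.44 (-0.77 to 1.65, adjusted p = 0.92), with 0.0217% of genes and no member passing. With library 2 as the lone chow-fed Xbp1 LKO library, the log2 fold change was -2.60 for Arntl and 1.34 for Dbp. Per2 had 0.68 (-0.12 to 1.49) with library 2 and 0.12 (-0.54 to 0.78) without it. With no filter on low counts Arntl (adjusted p = 3.8e-06) and Per2 (0.0074) passed, as did 2.78% of genes. Nr1d2 was the member whose groups did not overlap, as in 31.1% of all genes, with a log2 fold change of 0.18 (-0.14 to 0.51).

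**Figure D4:**
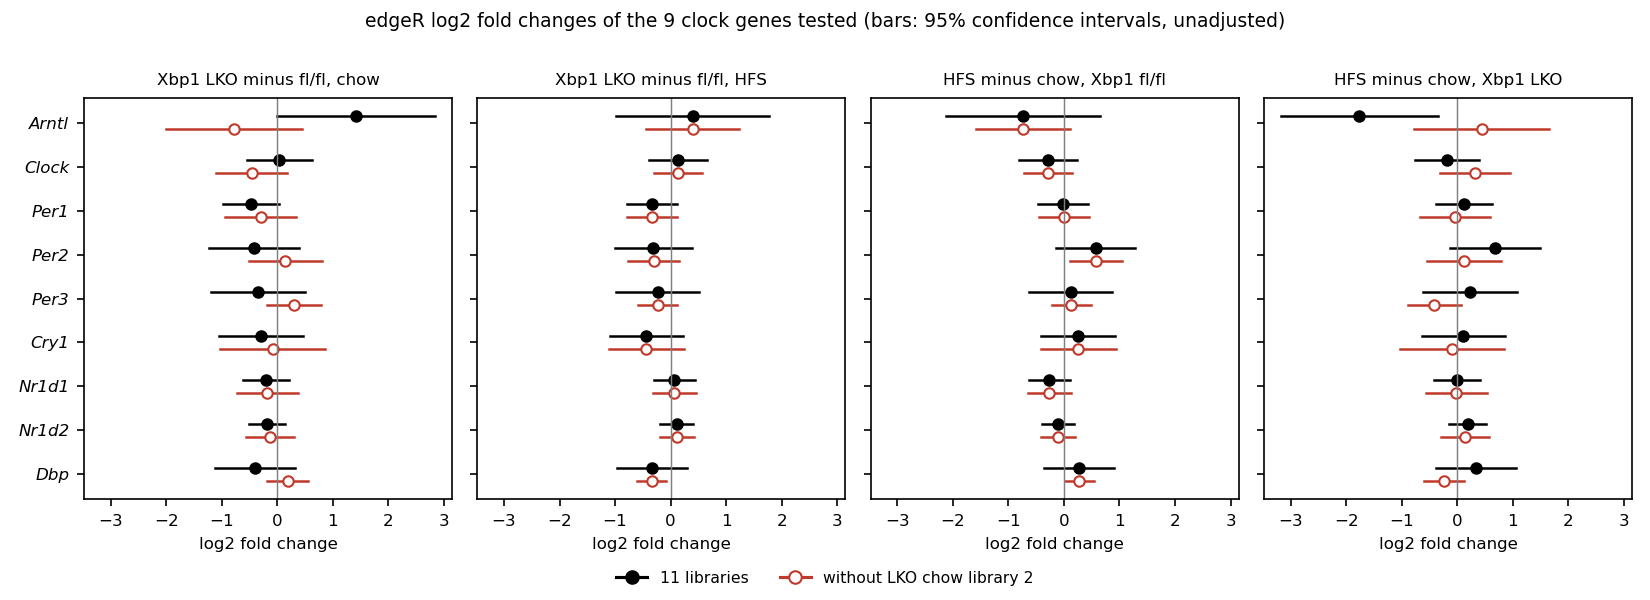
edgeR log2 fold changes of the 9 clock genes tested in 4 comparisons, with unadjusted 95% confidence intervals, from all 11 libraries (filled black) and without chow-fed Xbp1 LKO library 2 (open red). Arntl moves from 1.42 to -0.77 in the genotype comparison on chow and from -1.76 to 0.44 in the diet comparison in Xbp1 LKO mice, and the narrowest intervals are those of Nr1d1 and Nr1d2 with all libraries and that of Dbp without library 2.

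Whether the diet acted differently in the genotypes was tested as an interaction. No member passed and no gene at all (0%), with adjusted p-values of 0.87 to 0.99 for the members. At an unadjusted p under 0.05 edgeR had 816 genes and none of the members, and DESeq2 passed 31 genes and none of the members. Arntl had the largest estimate, -1.02 (95% confidence interval -3.01 to 0.97), and 1.17 (-0.32 to 2.66) without library 2, where again 0% of genes passed. The spread within groups, over all 13303 genes, put Arntl at percentile 97.7, Per3 at 84.5, Per2 at 81.8 and Dbp at 78.2, with Cry1 close to Dbp at 77.8, whereas Nr1d1 was at 50.1 and Nr1d2 at 32.1. These percentiles include library 2. Without it the highest library was 3.94 times the lowest for Arntl, 1.99 for Per2, 1.74 for Per3 and 1.53 for Dbp. The same ratio was 2.71 for Cry1, 1.72 for Nr1d1 and 1.48 for Nr1d2.

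The lists around the clock were tested in the same fits. Of the 16 other clock components and regulators, none passed in any of the 5 comparisons by edgeR, with 2 at an unadjusted p under 0.05 on chow, 1 in the genotype comparison on the HFS diet and none elsewhere. They had a median log2 fold change on chow of -0.096 against 0.0024 over all genes. Bhlhe40, a repressor at E-boxes, came closest on chow with -0.50 (standard error 0.15, adjusted p = 0.092), and passed in DESeq2 (adjusted p = 0.029), with -0.32 (adjusted p = 0.58) in edgeR without library 2. Of the 15 liver genes under circadian control, 1 passed by edgeR, in the comparison on chow: Cdkn1a, an inhibitor of the cell cycle, rose in Xbp1 LKO hepatocytes by a log2 fold change of 2.72 (0.70, adjusted p = 0.049). It had 3.14, 2.72 and 1.99 CPM in chow-fed Xbp1 fl/fl and 4.22 and 30.2 CPM in chow-fed Xbp1 LKO libraries, so library 2 carried the change on chow, and without it the log2 fold change was 0.69 (adjusted p = 0.79). On the HFS diet Cdkn1a had 1.14, 4.02 and 5.53 CPM in Xbp1 fl/fl and 22.7, 17.4 and 13.3 CPM in Xbp1 LKO libraries. These did not overlap, as in 26.1% of all genes, and the log2 fold change in edgeR was 2.32 (0.63, adjusted p = 0.067). That difference passed in DESeq2 (adjusted p = 0.033) and in edgeR without chow-fed Xbp1 LKO library 2 (adjusted p = 0.013), and DESeq2 also passed Insig2, an inhibitor of sterol regulatory element processing, on chow.

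Of 9 glucocorticoid-induced genes, which also have a daily rhythm, Tsc22d3 fell on chow by 1.41 on the log2 scale (standard error 0.27, adjusted p = 0.014), and by 1.29 without library 2, where the call was lost (adjusted p = 0.16). It had 45.8 CPM in library 2 and 55.1 CPM in library 1, both below the 111 to 154 CPM of chow-fed Xbp1 fl/fl libraries, and none of the list passed by edgeR in the other comparisons. None of 10 fasting and feeding response genes passed in any comparison by edgeR, with at most 3 at an unadjusted p under 0.05, while DESeq2 passed Pdk4 on chow. Without chow-fed Xbp1 LKO library 2, edgeR passed Pdk4 in the genotype comparison on the HFS diet. Of 14 immediate early genes tested, Atf3 passed on both diets (log2 fold changes of 4.80 and 3.09), Myc on chow (3.02) and Klf6 on the HFS diet (1.22). Without library 2 Atf3 on chow was 2.87 (adjusted p = 0.045) and Myc lost its call (adjusted p = 0.18). Of the markers, Alb, F2 and Serpina1c fell on chow and Apoa1, F2 and Serpina1c on the HFS diet among 10 hepatocyte markers, Sox9 fell on chow among 2 cholangiocyte markers tested, and no endothelial, Kupffer cell or stellate cell marker passed by edgeR. Without library 2 all 4 marker calls on chow were lost, with adjusted p-values of 0.069 for Alb, 0.21 for F2, 0.34 for Serpina1c and 0.10 for Sox9. DESeq2 passed 5 of the 8 endothelial markers on chow, all lower in Xbp1 LKO mice, and 7 of the 8 in the diet comparison in Xbp1 LKO mice, all higher on the HFS diet. Of the stellate cell markers it passed Lrat and Reln on chow, both lower in Xbp1 LKO mice, and Col3a1, Lrat, Reln and Rgs5 in the diet comparison in Xbp1 LKO mice, all higher on the HFS diet. The part of these markers in the clock gene values was not tested.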

How the data were processed

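RNA-Seq libraries of isolated hepatocytes were analysed, 11 in all. The authors deposited a whole-number count per Ensembl gene for each library, not normalized and not filtered. Their methods name a stranded mRNA kit, kallisto, tximport and DESeq2, while the labels name a total RNA kit and the submitters' processing notes cutadapt 1.13, STAR, HTSeq 0.6.1p1 and the build mm10. Which of these made the counts, and with which strand setting, is not given in the sources used here. Of the 54232 identifiers, 54165 matched GENCODE M21 (GRCm38), the source of symbols, positions and exon lengths. Groups and replicate numbers came from the sample titles.

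The members and all gene lists were chosen with earlier results of these data known. TMM factors, CPM and log2 CPM (prior count 2) were computed with edgeR 4.0.16 in R 4.3.3. Genes with low counts were removed (filterByExpr, minimum count 10), which kept 13303 genes and 9 of the 10 members. All 11 libraries entered 1 quasi-likelihood fit with a mean for each of the 4 groups, and p-values were adjusted by Benjamini-Hochberg. Standard errors were derived from the log2 fold change and its F statistic. Correlations used two-sided permutation tests with 100000 resamples. All members were named, and of the lists those past the threshold; the genes most like Arntl and Dbp were the 5 at each end of Pearson's r. A few genes of the lists and of that ranking are not reported here, and the counts over lists leave them out. Lists covered other clock components, circadian liver genes, glucocorticoid-induced, fasting and feeding, and immediate early genes and cell type markers. Alternatives were DESeq2 1.42.0, scaling by RLE or by library totals, another or no filter, fits to the compared groups alone, a block for the replicate number and each library left out. In a test on simulated counts of the genotype comparison on chow (12941 genes), edgeR found 142 of 200 changed genes and called 9 others. On the same counts DESeq2 (13303 genes) found 167 of the 200 and called 36 others. All simulated libraries had the same dispersion for a gene, so none stood apart as chow-fed Xbp1 LKO library 2 does. Taken over genes together, counting error was small beside the spread between replicates, whose pairs gave a chi-square of 25.6 to 93.7 for each degree of freedom. That measure was not given for single genes, so it does not cover Arntl with 20 to 359 counts or Npas2 with 1 to 19. No counting intervals are shown.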

Additional observations from a re-analysis of the deposited data

How the results depend on the processing

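Precision was limited by 2 or 3 libraries a group, by the 20 to 359 counts behind Arntl, and by the single-mouse chow libraries set against pooled HFS libraries; the time of day of collection cannot be taken from these files. Of the values of single clock genes, 338 of 351 kept their direction and side of the threshold under the settings that keep all libraries, and 446 of 495 did so with a library left out.

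The number of genes passing in the genotype comparison on chow, on the HFS diet, in the diet comparison in Xbp1 fl/fl and in Xbp1 LKO mice and in the interaction was 632, 543, 57, 8 and 0, and 1115, 981, 175, 208 and 31 with DESeq2. It was 1507, 1438, 499, 722 and 269 with no filter on low counts, where 1, 0, 1, 2 and 0 clock genes passed (Arntl, Per2, and both). Library totals gave 3000 and 1483 genes in the genotype comparisons, and only the groups compared gave 233 on chow and 0 for diet in Xbp1 LKO mice. With library totals the log2 fold changes of Cry1, Nr1d1 and Nr1d2 on chow were 0.025, 0.13 and 0.14, that of Per3 on the HFS diet 0.018 and that of Per1 for diet in Xbp1 fl/fl mice 0.010, and the correlation of Arntl was 0.23 with Nr1d1 and 0.19 with Nr1d2. With at least 1 CPM in 3 libraries Nr1d1 for diet in Xbp1 LKO mice was 0.0070. The cause was not tested.

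Same-numbered libraries are different animals. Their deviations from the group means correlated by -0.20 to 0.23 over 15 pairs, with a mean of -0.0087. On average the numbers thus marked no shared shift, but this mean cannot show whether single pairs shared a batch or collection day. With a replicate block, 455, 412, 38, 19 and 0 genes passed. With the block numbered as in the deposited file names, where chow-fed Xbp1 LKO library 2 has another number, 53 genes passed for diet in Xbp1 LKO mice. Nr1d1 was 0.0054 and 0.0029 in these block fits for diet in Xbp1 LKO mice, Clock on chow was -0.019 in the latter, and no clock gene passed in either.

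With each library left out in turn, 69 to 762 genes passed on chow (lowest without chow-fed Xbp1 LKO library 2, and 326 without chow-fed Xbp1 fl/fl library 2), 184 to 662 on the HFS diet (lowest without HFS-fed Xbp1 LKO library 2, and 230 to 285 without HFS-fed Xbp1 LKO library 3 or any HFS-fed Xbp1 fl/fl library), 6 to 59 for diet in Xbp1 fl/fl (lowest without HFS-fed Xbp1 fl/fl library 3) and 0 to 36 for diet in Xbp1 LKO mice (lowest without HFS-fed Xbp1 fl/fl library 3 or Xbp1 LKO library 1). Clock genes passing were 0 to 5 on chow and 0 to 2 for diet in Xbp1 LKO mice, the most without chow-fed Xbp1 LKO library 1, and the relations of Arntl that passed were 0 to 4, with 0 without chow-fed Xbp1 LKO library 2 and 1 without HFS-fed Xbp1 LKO library 3. Log2 fold changes on chow ran from -0.77 to 2.26 for Arntl, -0.46 to 0.40 for Clock, -1.37 to 0.15 for Per2, -1.55 to 0.31 for Per3 and -1.41 to 0.19 for Dbp, each with an end set by leaving out 1 of the chow-fed Xbp1 LKO libraries. On the HFS diet Nr1d1 ran from -0.054 to 0.27. For diet in Xbp1 fl/fl mice the range was -0.43 to 0.029 for Clock, -0.081 to 0.14 for Per1, -0.016 to 0.47 for Cry1 and -0.25 to 0.020 for Nr1d2. For diet in Xbp1 LKO mice it was -2.60 to 0.44 for Arntl, -0.56 to 0.31 for Clock, -0.045 to 0.34 for Per1, -0.41 to 1.44 for Per3, -0.13 to 0.36 for Cry1, -0.026 to 0.018 for Nr1d1 and -0.24 to 1.34 for Dbp. For the interaction it was -1.86 to 1.17 for Arntl, -0.27 to 0.60 for Clock, -0.040 to 0.35 for Per1, -0.46 to 1.06 for Per2, -0.54 to 1.31 for Per3, -0.39 to 0.13 for Cry1 and -0.52 to 1.07 for Dbp. The correlation of Arntl ran from -0.43 to 0.69 with Npas2, -0.24 to 0.097 with Nr1d1 and -0.47 to 0.029 with Nr1d2.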
